A study of Phaseolus vulgaris with 6 samples.

Results

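Common bean genes of the cell division machinery were examined in developing pods of Albion and Voyager, a pair of navy bean genotypes that differ in seed zinc. The members were the genes whose annotation by homology to Arabidopsis thaliana held the word cyclin, kinesin, mitotic, minichromosome, DNA replication or tubulin, without histone or chromatin. This gave 135 of the 19598 genes listed for the pod transcriptome. Each genotype had 3 replicate pots, and 6 RNA samples were sequenced. The labels give the pods an age of 20 days after anthesis, and the study's methods give a younger age for the sequenced pods. The labels also attach a low zinc concentration to Albion and a normal zinc concentration to Voyager, while describing all plants as grown at a sufficient zinc supply, and the study's methods describe the same fertilization for both genotypes. For each gene the table gives 1 FPKM value per genotype, pooled over its pots (fragments scaled to the exon length of the gene and to the mapped fragments of the library, so levels can be compared between genes). No spread between replicates can be computed from these values and no test of the genotypes was possible, so every difference given here is a description.

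Growth of a plant organ by cell division rests on cyclins and the cyclin-dependent kinases (CDKs) they activate. In plants, D-type cyclins act mainly at the entry into the cycle, A-type cyclins in DNA replication and later, and B-type cyclins at mitosis, and the kinases are held back by inhibitors of the KRP (KIP-related protein) family. DNA is replicated by a helicase built of minichromosome maintenance (MCM) proteins, and chromosomes and the new cell wall are placed by microtubules, which are polymers of alpha-tubulin and beta-tubulin along which kinesin motors move. A young legume pod holds a wall and developing seeds, and cell division in the seed precedes the filling with storage products.

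Most of the cell division genes were close in level between the genotypes, as were most of all listed genes. On the scale of log2(FPKM + 1), 0 of the 135 members were at least 2-fold higher in Voyager, beside 2.55% of all listed genes, and 1 member was at least 2-fold higher in Albion, beside 1.76% of all listed genes (4.31% in either direction). That member was a cycling DOF factor, a transcription factor taken up only because its annotation holds the letters of cyclin. With a 1.5-fold threshold, 2 members were higher in Voyager, beside 6.94% of all genes, and 5 were higher in Albion, beside 4.24% of all genes. The remaining 128 members (94.8%) lay within 1.5-fold, and 102 (75.6%) lay within 1.25-fold, compared with 88.8% and 73.3% of all listed genes. The median difference over the members, Voyager minus Albion on the log2(FPKM + 1) scale, was 0.00, with the middle 50% of the members between -0.11 and 0.17. Over all listed genes the median was 0.07 and the middle 50% lay between -0.09 and 0.24.

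The members were split evenly by sign, with 68 higher in Voyager and 67 higher in Albion, whereas 61.9% of all listed genes were higher in Voyager and 37.9% in Albion. This split depended on the scaling. When the Voyager values were scaled to bring the median of all genes to 0, 54 members were higher in Voyager and 81 in Albion, and with scaling to a common upper quartile the numbers were 53 and 82.

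**Figure D1:**
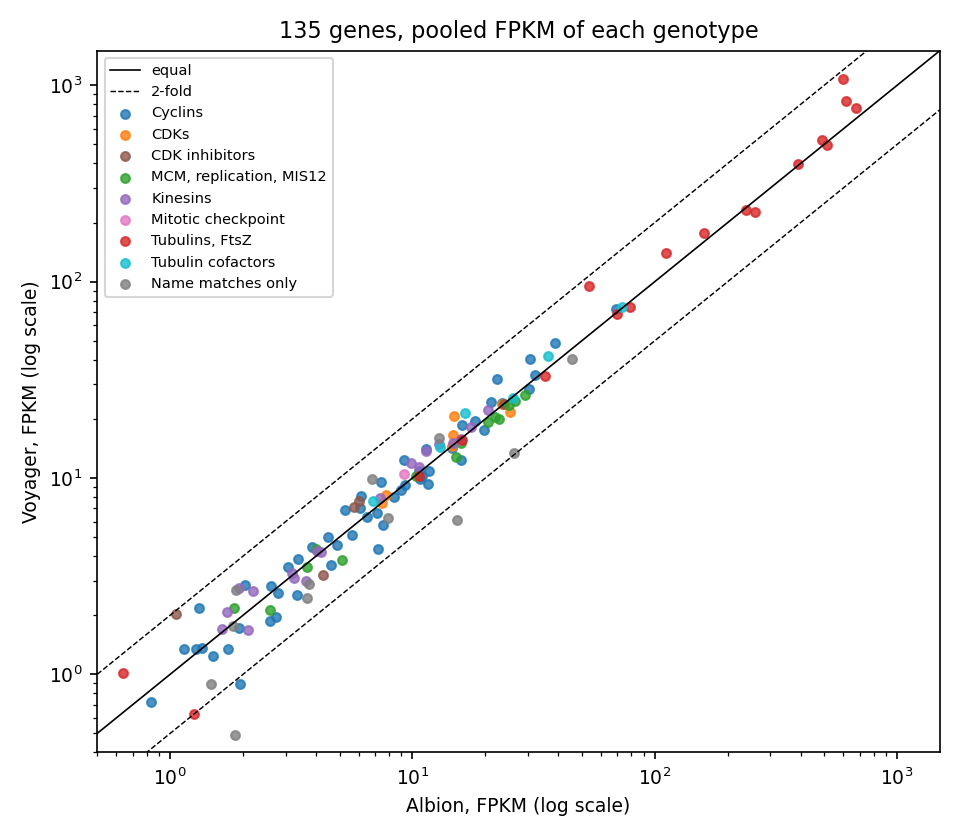
Pooled FPKM of the 135 genes in Albion (x axis) and Voyager (y axis), both on log scales and coloured by role, with the line of equal level and dashed lines at a 2-fold ratio. The points follow the line of equal level over the whole range, from 0.64 to 675 FPKM in Albion, and the tubulins fill the upper end.

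The annotation did not always name a cell cycle protein. By their words the members were sorted into 9 roles. These were 53 cyclins, 7 CDKs and their partners, 5 CDK inhibitors, 14 MCM, replication and kinetochore genes and 19 kinesins. The rest were 1 mitotic checkpoint gene, 18 tubulins and tubulin relatives, 6 tubulin cofactors and modifiers, and 12 genes that matched a search word only. The other roles still hold some genes with tasks outside cell division, such as CDKC;1 and FTSZ2-1, described below. Levels in Albion ranged from 0.64 to 675 FPKM with a median of 9.34 FPKM, and the median in Voyager was 9.87 FPKM. The medians over all listed genes were 11.1 and 11.7 FPKM. No member was listed at 0 in either genotype, 132 members averaged 1 FPKM or more, and 89 averaged 5 FPKM or more. The 10 highest members, ranked by mean level, were all alpha-tubulins or beta-tubulins.

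**Figure D2:**
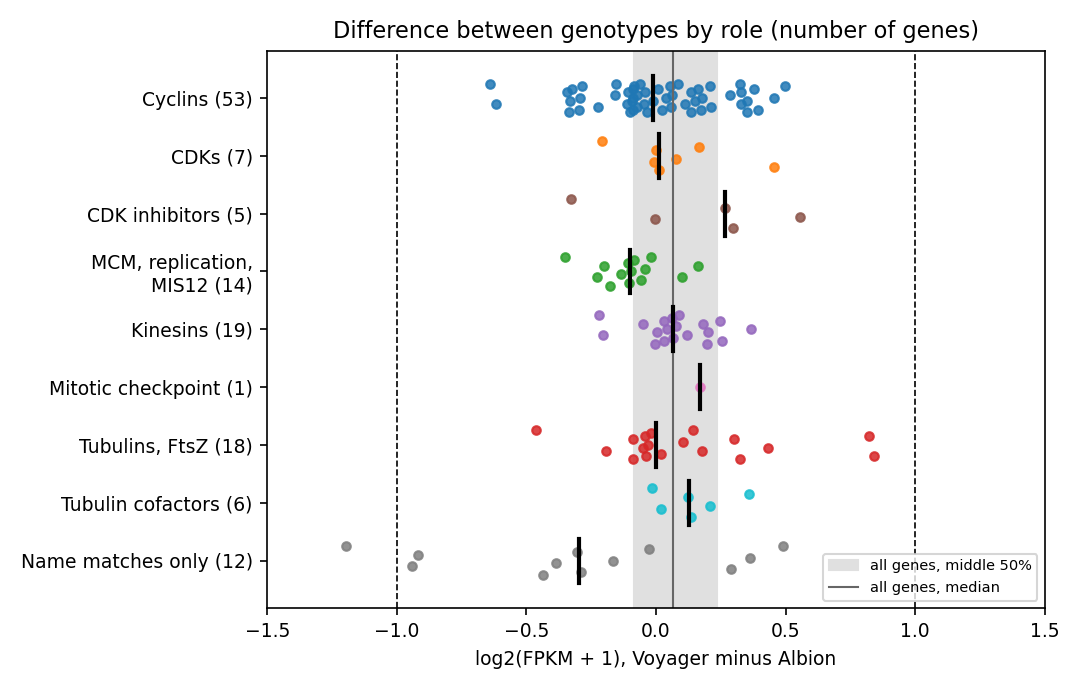
Difference of each gene between the genotypes (x axis, log2(FPKM + 1), Voyager minus Albion) by role (y axis, number of genes in brackets). Points are genes, black bars are role medians, the grey band and line are the middle 50% and the median of all listed genes, and dashed lines mark a 2-fold difference, which only a gene among the 12 name matches passed.

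Among the cyclins, 26 of the 53 genes were higher in Voyager and 27 in Albion, with a median difference of -0.01 on the log2(FPKM + 1) scale, and median scaling turned the split into 20 and 33. The highest cyclin was Phvul.007G054800, annotated only as a cyclin family protein, with 69.1 FPKM in Albion and 72.2 FPKM in Voyager. The next was Phvul.007G251400, a cyclin-like gene with 38.7 FPKM in Albion and 48.8 FPKM in Voyager. Both lie on chromosome 7 and carry no class name, so their place in the cycle cannot be read from the table.

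D-type cyclins, the class that responds to growth signals and sugar, had a higher median than the A-type and B-type cyclins. The 16 genes with a CYCD symbol had medians of 8.40 FPKM in Albion and 9.30 FPKM in Voyager, and 8 were higher in each genotype (6 in Voyager and 10 in Albion after median scaling). CYCD1;1 is the symbol of 4 of them, with means from 1.31 to 35.5 FPKM. The highest of these, Phvul.002G074800, had 30.5 FPKM in Albion and 40.4 FPKM in Voyager, a 1.32-fold difference, and all 4 were higher in Voyager. On the log2(FPKM + 1) scale, the largest difference towards Voyager of any cyclin belonged to a CYCD3;2 gene, Phvul.003G240500 on chromosome 3 from 46363154 to 46365135, with 22.4 FPKM in Albion and 32.0 FPKM in Voyager (log2 difference 0.50). In Arabidopsis, D3 cyclins sustain division in developing lateral organs. The other CYCD3;2 genes did not share one direction: Phvul.009G067600 had 16.0 FPKM in Albion and 18.7 FPKM in Voyager, and Phvul.002G015500 had 2.74 and 1.96 FPKM.

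The 10 A-type cyclins were low, with no gene above 8.97 FPKM in Albion, and their differences lay between -0.30 and 0.16 on the log2 scale. CYCA1;1 (Phvul.009G128200) had 8.97 FPKM in Albion and 8.65 FPKM in Voyager. Of the 6 B-type cyclins, the mitotic CYCB1;2 gene Phvul.001G119700 was the highest, with 14.6 FPKM in Albion and 14.2 FPKM in Voyager, and CYCB1;4 (Phvul.008G203300) had 10.7 and 9.87 FPKM. CYCB3;1 (Phvul.011G179000) had the largest B-type difference, with 2.03 FPKM in Albion and 2.86 FPKM in Voyager (log2 difference 0.35).

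The 2 largest cyclin differences towards Albion were those of cyclins outside these classes. CYCJ18 (Phvul.003G001900, at 123484 to 125535 on chromosome 3) had 1.95 FPKM in Albion and 0.89 FPKM in Voyager, a log2 difference of -0.64 with the pseudocount of 1 FPKM and of -1.05 with a pseudocount of 0.1 FPKM. A CYCP4;1 gene (Phvul.008G049600), of the cyclins related to those of phosphate signalling in yeast, had 7.21 FPKM in Albion and 4.35 FPKM in Voyager (log2 difference -0.62). Another CYCP4;1 gene, Phvul.010G044800, had 1.32 FPKM in Albion and 2.18 FPKM in Voyager, the opposite direction, and its plain ratio of 1.65 was the largest towards Voyager of the cyclins. CYCH;1 (Phvul.007G179300), the cyclin partner of the CDK-activating kinase, had 32.1 FPKM in Albion and 33.4 FPKM in Voyager.

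The kinases showed little difference. CDKB2;2 (Phvul.001G000500), of the plant-specific B-type kinases whose transcripts accumulate towards mitosis, had 23.5 FPKM in Albion and 23.7 FPKM in Voyager, and CDKB1;2 (Phvul.008G253500) had 14.6 and 14.5 FPKM. CDKC;1, a kinase of transcription rather than of the cycle, is the symbol of 2 genes. Phvul.008G205500 had 25.3 FPKM in Albion and 21.8 FPKM in Voyager, and Phvul.006G020500 had 14.7 and 16.6 FPKM. The CDK-activating kinase gene CDKD1;1 is represented by Phvul.004G152000, with 7.75 and 8.22 FPKM, and by Phvul.002G326800, with 7.46 and 7.45 FPKM. The assembly factor of that kinase, Phvul.004G044600, had the largest difference of the 7 genes, with 14.9 FPKM in Albion and 20.8 FPKM in Voyager (log2 difference 0.45). The A-type kinase CDKA;1 is annotated as cell division control 2 and is therefore not a member. Its higher gene, Phvul.006G122800, had 91.4 FPKM in Albion and 98.8 FPKM in Voyager, above every cyclin and CDK of the list.

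CDK inhibitors had medians of 5.76 FPKM in Albion and 7.13 FPKM in Voyager, beside 7.14 and 6.89 FPKM for the cyclins. The highest of the 5 was a KRP3 gene, Phvul.007G133100, with 23.9 FPKM in both genotypes. The other KRP3 gene, Phvul.008G125600, had 6 FPKM in Albion and 7.59 FPKM in Voyager. The KRP7 symbol is given to 3 genes that pointed in different directions. Phvul.003G295400 had 1.06 FPKM in Albion and 2.03 FPKM in Voyager (log2 difference 0.56), and Phvul.002G019500 had 4.28 and 3.21 FPKM (log2 difference -0.33).

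The replicative helicase genes MCM2 to MCM7 leaned to Albion by a small amount. All 7 genes annotated as MCM2/3/5 family, these 6 among them, were lower in Voyager. Their log2 differences lay between -0.18 and -0.06, where the median of all genes was 0.07. MCM7 (Phvul.001G212600, chromosome 1, 47599155 to 47604275 in the v1.0 genome) was the highest, with 29.1 FPKM in Albion and 26.4 FPKM in Voyager. MCM5 (Phvul.003G175800) had 26.6 and 24.6 FPKM, MCM2 (Phvul.003G116100) had 25.1 and 23.6 FPKM, and MCM6 (Phvul.009G245600) had 22.7 and 20.0 FPKM. MCM4 (Phvul.011G041300) had 20.6 and 19.2 FPKM, and MCM3 (Phvul.002G194200) had 15.8 and 15.1 FPKM. The seventh gene carries the symbol emb1688 (Phvul.001G260800) and had 21.9 and 20.4 FPKM. Its symbol names no MCM subunit, so it is not counted as a helicase gene here. The subunits MCM2 to MCM7 form a ring with 1 copy of each, and their levels lay within 1.84-fold of each other in Albion and within 1.75-fold in Voyager. The Voyager level was 0.879 to 0.957 of the Albion level for these 6 genes. The direction was the same for all 7 genes under each scaling, which was fixed beforehand because both scalings lower the Voyager values. These differences are far under 1.5-fold, and whether they exceed the spread between pots was not tested.

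The further replication genes among the members (MCM8, MCM9, MCM10, SLD5 and a putative helicase) were lower expressed than MCM2 to MCM7. MCM10 (Phvul.009G119500), an initiation factor of replication, had 5.12 FPKM in Albion and 3.80 FPKM in Voyager, the largest difference of the replication genes (log2 difference -0.35). MCM8 (Phvul.001G174700) had 2.59 and 2.12 FPKM and MCM9 (Phvul.006G204900) had 3.66 and 3.53 FPKM, and both proteins are known for roles in recombination. The GINS subunit gene SLD5 (Phvul.010G140100) had 3.99 FPKM in Albion and 4.35 FPKM in Voyager. A putative DNA replication helicase, Phvul.005G016100, had 1.84 and 2.18 FPKM (log2 difference 0.16). The word minichromosome also took up 2 genes for MIS12, a kinetochore protein, with 15.1 and 12.7 FPKM for Phvul.003G180600 and 10.4 and 10.3 FPKM for Phvul.002G142200.

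**Figure D3:**
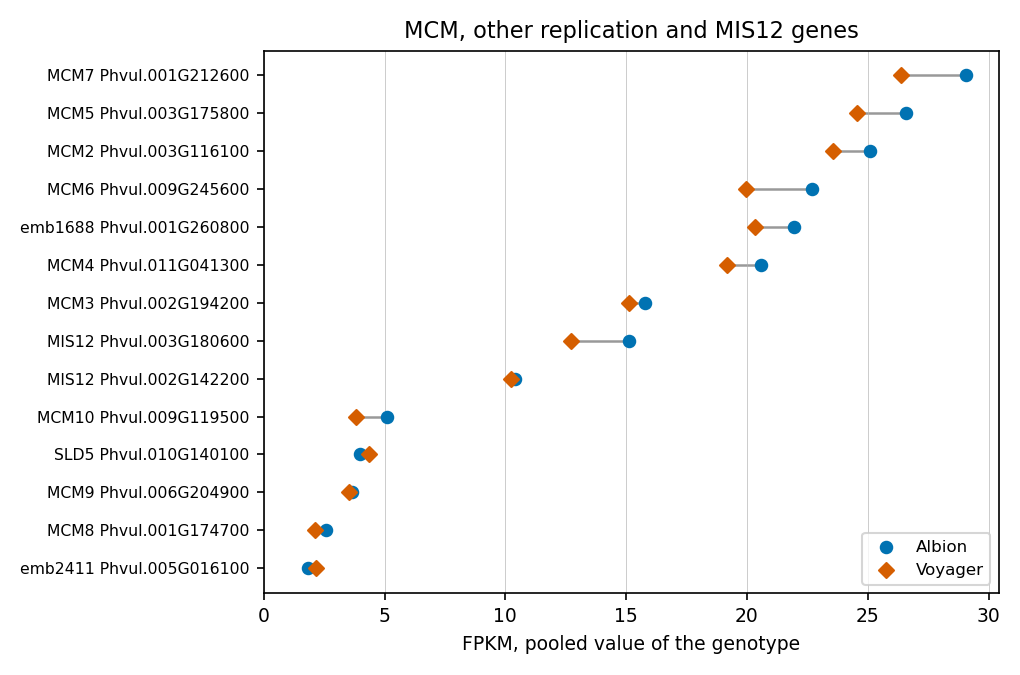
FPKM (x axis) of the 14 MCM, replication and MIS12 genes in Albion (circles) and Voyager (diamonds), ordered by mean level. The 7 highest genes are those annotated as MCM2/3/5 family, from 15.1 to 29.1 FPKM. Each has its Voyager value to the left of its Albion value.

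Kinesin genes showed the opposite sign for most members. Voyager was higher for 15 of the 19 kinesins and Albion for 4, with a median log2 difference of 0.07, near that of all listed genes, and under median scaling the split became 10 and 9. The highest was an ATK3 gene, Phvul.005G090700, of the minus-end directed kinesins that shape the spindle, with 20.4 FPKM in Albion and 22.3 FPKM in Voyager. KAC2 (Phvul.002G147700), a kinesin-like protein of chloroplast movement, had 17.4 and 18.3 FPKM. ARK3 (Phvul.002G151700) had 12.8 and 14.9 FPKM. Both genes for the calmodulin-binding kinesin KCBP, known in Arabidopsis from trichome shape, were higher in Voyager, with 11.4 and 13.7 FPKM for Phvul.003G279200 and 9.89 and 12.0 FPKM for Phvul.002G120200.

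Kinesins of the phragmoplast, the structure that builds the new wall between daughter cells, were low. Their log2 differences were from 0.03 to 0.18, all towards Voyager. POK1 (Phvul.003G119700), which orients the division plane, had 1.72 FPKM in Albion and 2.08 FPKM in Voyager, and POK2 (Phvul.003G293500) had 3.19 and 3.28 FPKM. PAKRP1L (Phvul.001G264500) had 4.04 and 4.26 FPKM. The largest kinesin difference towards Voyager was that of a kinesin motor gene, Phvul.006G052700, with 1.92 and 2.76 FPKM (log2 difference 0.36). Towards Albion it was that of Phvul.005G054500, with 3.65 and 2.99 FPKM (log2 difference -0.22). The mitotic checkpoint gene Phvul.003G076200 had 9.25 FPKM in Albion and 10.5 FPKM in Voyager.

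**Figure D4:**
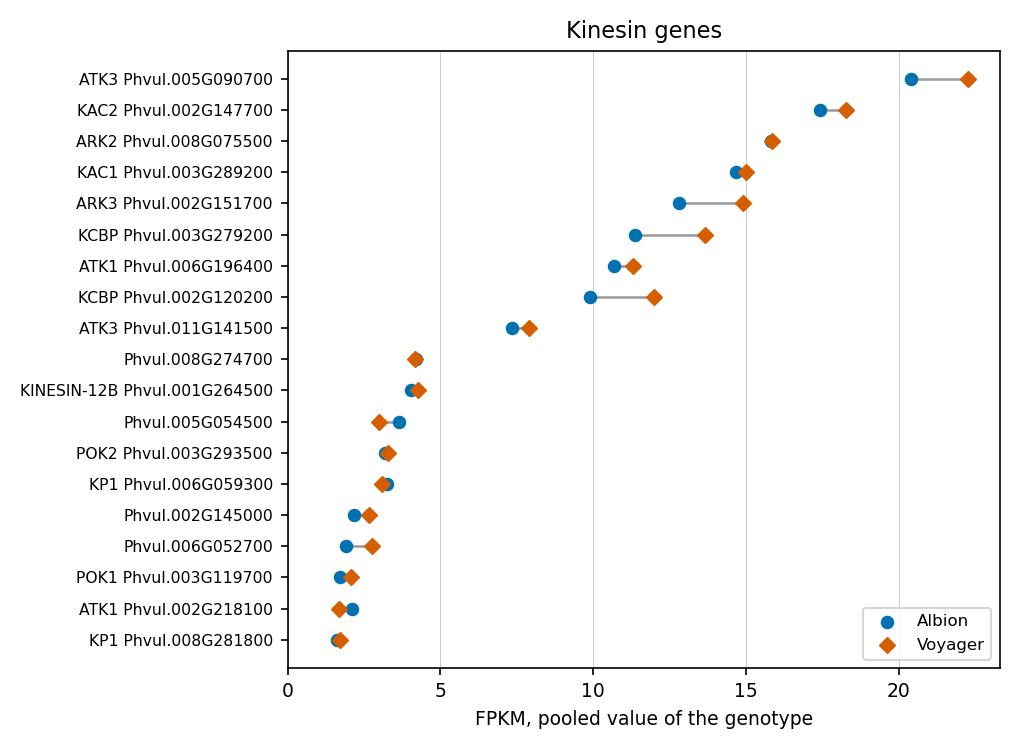
FPKM (x axis) of the 19 kinesin genes in Albion (circles) and Voyager (diamonds), ordered by mean level. The circle and the diamond of each gene lie close together, and the Voyager value is to the right for 15 of the 19 genes.

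Tubulins held most of the summed level of these genes. The 14 alpha-tubulin and beta-tubulin genes made up 73.3% of the summed FPKM of all members in Albion and 76.6% in Voyager. Alpha-tubulin and beta-tubulin did not differ alike between the genotypes. The 6 alpha-tubulin genes summed to 2437 FPKM in Albion and to 3295 FPKM in Voyager, a ratio of 1.35, whereas the 8 beta-tubulin genes summed to 1746 and 1742 FPKM. Alpha-tubulin thus made up 58.3% of the summed alpha-tubulin and beta-tubulin FPKM in Albion and 65.4% in Voyager. This share is taken within each genotype, so it does not depend on the scaling between the genotypes.

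TUA2 (Phvul.009G114100, chromosome 9 from 17075948 to 17077904) had the largest difference, with 599 FPKM in Albion and 1075 FPKM in Voyager, which was 1.79-fold (log2 difference 0.84). TUA3 (Phvul.001G111700, chromosome 1 from 30780943 to 30783995) differed by nearly the same factor at a much lower level, with 53.4 and 95.2 FPKM, or 1.78-fold. On the log2(FPKM + 1) scale these were the 2 members at least 1.5-fold higher in Voyager. By the plain ratio of FPKM, a KRP7 gene (Phvul.003G295400), a CYCP4;1 gene (Phvul.010G044800) and TUB6 also passed 1.5-fold, each at a low level. A TUA4 gene, Phvul.007G047300, followed with 618 FPKM in Albion and 835 FPKM in Voyager, 1.35-fold. TUA5 (Phvul.002G237400) had 675 and 762 FPKM, and the other TUA4 gene, Phvul.003G231500, had 490 and 527 FPKM. The remaining alpha-tubulin, a TUA2 copy on chromosome 2 (Phvul.002G007900), was barely expressed, with 1.25 FPKM in Albion and 0.63 FPKM in Voyager. In Albion, TUA5 had the highest level of the alpha-tubulins and TUA2 was the third, and in Voyager TUA2 was the first.

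The beta-tubulins had the same order of levels in both genotypes, except that TUB7 and the TUB8 gene Phvul.006G126100 (238 and 233 FPKM) changed places. TUB1 (Phvul.009G017300) had 514 FPKM in Albion and 498 FPKM in Voyager, and a TUB8 gene (Phvul.007G070800) had 392 and 397 FPKM. TUB7 (Phvul.002G198600) had the largest difference towards Albion, with 260 and 228 FPKM (log2 difference -0.19), and TUB2 (Phvul.002G289100) was higher in Voyager, with 112 and 140 FPKM. TUB6 (Phvul.002G329800) was the lowest, with 0.64 and 1.02 FPKM. Tubulin genes are close in sequence, so reads can be shared between copies, and the level of a single tubulin gene is less certain than the summed level of its class.

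**Figure D5:**
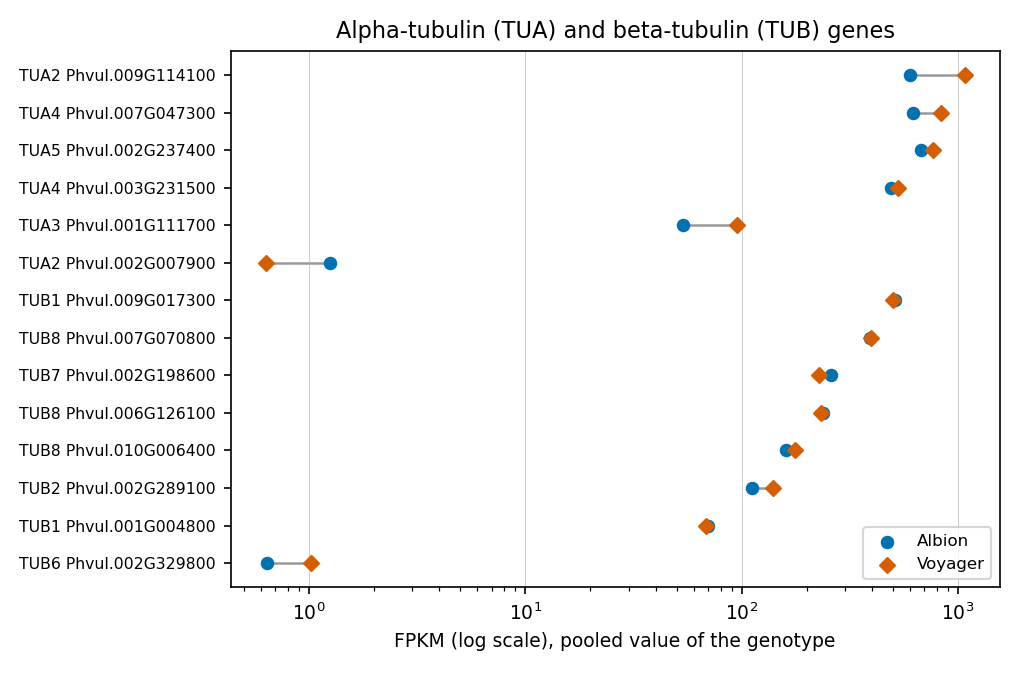
FPKM (x axis, log scale) of the 6 alpha-tubulin (TUA) and 8 beta-tubulin (TUB) genes in Albion (circles) and Voyager (diamonds). The wide gaps among the high genes are those of TUA2 (599 and 1075 FPKM) and TUA3 (53.4 and 95.2 FPKM), and the values of the highest beta-tubulins nearly overlap.

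Genes that nucleate or assemble microtubules differed less than TUA2 and TUA3. Gamma-tubulin (TUBG1, Phvul.006G110500), from which microtubules start, had 16.1 FPKM in Albion and 15.6 FPKM in Voyager, and its complex partner GCP4 (Phvul.007G147200) had 10.6 and 10.2 FPKM. The folding cofactor KIESEL (Phvul.008G274500), a chaperone of tubulin, had 73.5 and 74.5 FPKM. Genes with a tubulin binding cofactor C domain were Phvul.001G140500, with 36.2 and 42.0 FPKM, and its neighbour Phvul.001G140300, with 16.5 and 21.5 FPKM (log2 difference 0.36). The tubulin-tyrosine ligase gene Phvul.009G227300, which overlaps another gene of the table, had 25.9 and 25.6 FPKM. The tubulin relative FTSZ2-1, which divides plastids and not cells, is represented by Phvul.001G189700, with 78.9 FPKM in Albion and 74.1 FPKM in Voyager, and by Phvul.007G227600, with 35.4 and 33.2 FPKM.

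The 12 genes that matched a word only included the members with the largest differences towards Albion. Cycling DOF factors are transcription factors under the circadian clock that delay flowering in Arabidopsis, and 6 of the 7 listed here were lower in Voyager, with a median log2 difference of -0.44. On chromosome 9 (27607267 to 27610475), the CDF3 gene Phvul.009G186600 had 15.3 FPKM in Albion and 6.13 FPKM in Voyager, 2.50-fold higher in Albion (log2 difference -1.19). A further CDF3 gene, Phvul.003G189300, had 26.3 FPKM in Albion and 13.4 FPKM in Voyager (log2 difference -0.92). The CDF2 gene Phvul.002G170600 had 1.86 and 0.49 FPKM (log2 difference -0.94), and the exception was the CDF3 gene Phvul.001G106400, with 1.87 and 2.69 FPKM. Together the 7 genes summed to 52.3 FPKM in Albion and to 27.9 FPKM in Voyager. Of the ribosome recycling factors of organelle translation, Phvul.007G172400 had 45.5 and 40.4 FPKM and Phvul.011G203500 had 6.78 and 9.93 FPKM (log2 difference 0.49). The others were 2 Brf1-like genes of transcription and 1 gene named for a mitotic phosphoprotein domain. Without these 12 genes, 0 of 123 members were at least 2-fold different in either direction on the log2(FPKM + 1) scale, and CYCJ18 was past 2-fold with a pseudocount of 0.1 FPKM.

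Several members lie beside each other. A CYCA3;1 trio on chromosome 9 runs from 11696227 to 11709065, with Phvul.009G068900 at 3.34 FPKM in Albion and 2.53 FPKM in Voyager, Phvul.009G069000 at 2.61 and 2.83 FPKM and Phvul.009G069100 at 8.41 and 8.01 FPKM. The CYCB1;2 genes on chromosome 1 are 11820 bases apart, and Phvul.001G119800 had only 1.14 FPKM in Albion and 1.35 FPKM in Voyager beside the 14.6 and 14.2 FPKM of Phvul.001G119700. Neighbouring CYCA3;4 genes on chromosome 1 were alike, with 5.62 and 5.13 FPKM for Phvul.001G025600 and 4.49 and 5.03 FPKM for Phvul.001G025700. Copies next to each other differed in level in some pairs and not in others, and close copies can share reads. By chromosome, 22 members lie on chromosome 1, 22 on chromosome 2 and 19 on chromosome 3, and 3 on chromosome 4.

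Genes taken by further cell cycle words of the annotation were as even as the members. Of 90 such genes, 45 were higher in each genotype (32 in Voyager and 58 in Albion after median scaling). The median log2 difference was 0.00, and 2 were at least 2-fold higher in Voyager and 0 in Albion. The words also match the rhodanese/cell cycle control phosphatase superfamily and the FtsZ gene FTSZ1-1 (Phvul.006G049100). The list therefore need not hold cell cycle genes only. The sliding clamp PCNA1 (Phvul.006G137800), which holds the polymerase on DNA, had 76.8 FPKM in Albion and 71.2 FPKM in Voyager, and the retinoblastoma-related gene RBR1 (Phvul.011G201200), a brake on entry into replication, had 22.3 and 23.8 FPKM. One gene past 2-fold was Phvul.003G000400, annotated as the catalytic subunit of DNA polymerase epsilon, with 2.01 FPKM in Albion and 12.3 FPKM in Voyager (log2 difference 2.14). The other was a PCNA2 gene, Phvul.005G148900, with 0.83 and 2.83 FPKM (log2 difference 1.07). The other gene with the polymerase annotation, Phvul.011G091900, had 7.90 and 9.42 FPKM. It runs from 9178046 to 9201169 on chromosome 11, whereas Phvul.003G000400 runs only from 14146 to 16027 on chromosome 3. Whether the shorter gene is a whole copy was not examined. A list of 47 genes annotated as histones, most of them core histones, whose transcripts accumulate during replication, had a median log2 difference of 0.11, with 33 higher in Voyager (28 after median scaling). The annotation also takes in a gene with the symbol of the embryo regulator LEC1 (Phvul.006G057800), with 1.71 and 0.38 FPKM.

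Pods are a mixture of wall and seed, so fewer dividing cells and less RNA per cell cannot be told apart in these values. A list of 152 genes was taken by the annotation words cupin, oleosin, late embryogenesis abundant, seed storage or 2S albumin. These words also match a superfamily name that includes lipid-transfer proteins, so the list need not hold seed genes only. Its levels summed to 26273 FPKM in Albion and to 28477 FPKM in Voyager, with a median log2 difference of 0.11. Voyager was higher for 91 of them and Albion for 61, and 3 were listed at 0 in a genotype. The 2 highest, both PAP85 cupin genes, had 5795 and 5284 FPKM in Albion and 7440 and 6671 FPKM in Voyager. The next gene, Phvul.006G138700, had 2290 and 1778 FPKM, so the sums rest largely on few genes. For 83 photosynthesis genes the summed levels were 20129 and 18645 FPKM, with a median log2 difference of -0.02 and none at 0. For 49 genes of laccases, cellulose synthases and irregular xylem the summed levels were 1637 and 1809 FPKM, with a median of 0.12. The study reports that, at the pod age its methods give, developing seed was a larger part of pod weight in Albion than in Voyager. The part of tissue makeup in the differences given above was not tested. Summed over all genes, FPKM came to 830694 in Albion and 950155 in Voyager.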

How the data were processed

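Pod RNA of 3 Albion and 3 Voyager samples was sequenced by the authors in paired-end mode. Reads were filtered by the authors with the FASTX-Toolkit and aligned to the v1.0 genome of P. vulgaris with TopHat 1.4.1 and Bowtie 0.12.7, and FPKM was estimated with Cufflinks 1.3.0 and Cuffdiff. The deposited FPKM are 1 pooled value per gene and genotype, rounded to 2 decimals, so the depth and error behind a value are unknown. The columns of the authors' own comparison (log2 fold change, test statistic, p-value, q-value and call) were not used. Reads shared between close copies can move FPKM.

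Differences were computed as log2(FPKM + 1), Voyager minus Albion, over all 19598 genes with no filter, in Python 3.11 with pandas 2.3.3 and numpy 2.4.6 (plots: matplotlib 3.10.9). The computation was tested on simulated data. A gene was counted where the difference reached 2-fold. Alternatives were a pseudocount of 0.1 FPKM, 2 scalings, filters at a mean of 1 and 5 FPKM, a 1.5-fold threshold, and leaving out name matches or overlapping genes.

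Roles came from annotation words. The words cycling DOF and recycling, and the place of the KRP3 annotation among the inhibitors, were set after the table was seen. Members past 2-fold, the 2 highest and the most different members of each role, all genes annotated as minichromosome maintenance, A and B class CDKs and the 2 highest genes of each related list were named by rule. The rule also takes 2 histones and SEN1, which are not described. Other genes were named after their values were seen. The members and lists were chosen with earlier results of these data known. Gene positions are those of the table. Gene sequences and promoters were not analysed here.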

Additional observations from a re-analysis of the deposited data

How the results depend on the processing

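No paired analysis was possible because the table holds 1 pooled value per genotype, and for the same reason no replicate could be left out. The number of members at least 2-fold higher in Voyager was 0 under every alternative at 2-fold, and it was 2 at 1.5-fold. At 2-fold only the smaller pseudocount could have raised it, because the scalings lower Voyager and the filters only remove members. The number at least 2-fold higher in Albion was 1. It became 3 with a pseudocount of 0.1 FPKM, where CYCJ18 (-1.05) and a CDF2 gene were added. With that pseudocount the share of all listed genes rose as well, from 1.76% to 2.92%. The number was 0 without the name matches and 5 at 1.5-fold. The median log2 difference over the members was 0.00 and became -0.0605 with median scaling and -0.0671 with upper quartile scaling, where the median of all genes was 0.00 and -0.01. The scalings multiplied Voyager by 0.951 and 0.946. Of the 39 named members, 37 moved by no more than 0.25 on the log2 scale with a pseudocount of 0.1 FPKM. All 39 did so under both scalings. The scaling factors shift a log2 value by much less than 0.25, so no other outcome was possible. Filters on the mean level and the removal of overlapping genes left both counts the same. The limits are that small differences, such as those of the MCM genes, have no replicate check, and that levels under about 1 FPKM depend on the pseudocount.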

Other observations

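The 7 members at least 1.5-fold different between the genotypes were looked up among their neighbours, taking the 10 nearest listed genes on each side. Around CYCJ18 (Phvul.003G001900), 4 of 20 neighbours were at least 1.5-fold higher in Voyager and 0 in Albion, a share of 20.0% beside 11.2% of all listed genes in either direction. CYCJ18 itself was lower in Voyager, against the direction of these neighbours. Around TUA2 (Phvul.009G114100) 1 of 20 neighbours was at least 1.5-fold different (5%), and around TUA3 (Phvul.001G111700) 2 of 20 were, both higher in Albion. Around the CDF3 genes Phvul.009G186600 and Phvul.003G189300 the share was 15.0% each. These shares rest on few genes and are given as values.

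Some genes that share an annotation differed widely from each other in level. The ratio of the highest to the lowest mean level was 27.1 among the 4 genes annotated as cyclin D1;1, 11.6 among the 3 annotated as cyclin D3;2, 16.4 between the genes annotated as cyclin D6;1 and 7.32 between those annotated as tubulin beta-1 chain. Others were nearly equal, with ratios of 1.03 for cyclin D3;1 and for cyclin p3;2, 1.07 for cyclin-dependent kinase D1;1 and 1.15 for the kinesin ZWICHEL. Across the 135 members, Spearman's rho between the Albion and the Voyager level was 0.98, and over all listed genes it was 0.97. These are correlations across genes, which share the same libraries and are not independent replicates.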
